A study of Homo sapiens with 33 samples.

Results

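The 31 genes described here encode the enzymes of glycolysis, the transporters that bring glucose into the cell, the monocarboxylate transporters that carry lactate across its membrane, and 2 families of enzymes that set how fast glucose and pyruvate are used. They were taken as a fixed list of symbols. All 31 were matched to gene identifiers, out of 78932 identifiers in the tables and 19183 nuclear protein-coding genes among them. RNA came from HepG2, an established human liver tumour cell line, and the labels name no treatment or genotype besides the line. Cells were sorted by stage of the cell cycle into the fractions G1, S1, S2, S3, S4 and G2, and each fraction has a library numbered replicate 3 and a library numbered replicate 2, which gives 12 sorted libraries. The 3 bulk libraries, replicates 1, 2 and 3, come from HepG2 cells for which no sorting is named. Sorted libraries were made with a stranded total RNA kit for very small inputs, and bulk libraries with a stranded mRNA kit, so sorting and library kit cannot be told apart in a comparison of sorted with bulk. Nuclear RNA is the labelled molecule of both kinds. Separate cultures are not named for the replicates, so a p-value here covers only how far these libraries spread, and part of that may be technical.

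Glycolysis turns glucose into pyruvate in the cytosol, and pyruvate either enters mitochondria or is reduced to lactate and exported. Most steps can be carried out by several isoenzymes from separate genes. Adult liver is known for SLC2A2 and PKLR, while fast-growing liver tumour cells often carry HK2, PKM and SLC2A1. Many genes of the path are known targets of hypoxia-inducible factors, transcription factors that bind the cores ACGTG and GCGTG in DNA.

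Promoter sequences from RefSeq (GRCh38.p14, 250 bases before to 50 after the start site that the table uses) were found for 28 of the 31 genes. That start site is the end of the RefSeq gene span for 16 of them and lies 111 to 10501 bases inside the span for the other 12. It lies 1842 bases inside for ENO3 and 4601 bases inside for PFKFB1, so these windows do not cover the outermost start of either gene. They are shown for HK2, PGK1 and ENO1, which were lower together in replicate 3 than in replicate 2, for ENO3, which was higher there, and for PFKFB1, whose level gave the smallest p between the fractions. Each runs from 5′ to 3′ on the strand of the gene, and capitals mark ACGTG or GCGTG read on either strand, so that CACGT and CACGC are the same cores on the other strand.
HK2, chr2:74833877-74834176, + strand: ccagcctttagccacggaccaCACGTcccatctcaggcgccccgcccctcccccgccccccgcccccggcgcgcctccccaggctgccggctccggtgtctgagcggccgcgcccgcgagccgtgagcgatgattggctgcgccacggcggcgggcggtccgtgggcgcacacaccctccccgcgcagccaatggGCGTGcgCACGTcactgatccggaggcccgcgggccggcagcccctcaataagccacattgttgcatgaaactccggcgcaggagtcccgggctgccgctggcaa
PGK1, chrX:78103998-78104297, + strand: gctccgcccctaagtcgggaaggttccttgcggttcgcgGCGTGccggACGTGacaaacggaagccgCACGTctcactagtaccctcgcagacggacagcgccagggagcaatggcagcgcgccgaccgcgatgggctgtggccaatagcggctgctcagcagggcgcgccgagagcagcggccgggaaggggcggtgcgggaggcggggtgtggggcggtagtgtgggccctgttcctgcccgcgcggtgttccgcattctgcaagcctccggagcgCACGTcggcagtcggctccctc
ENO1, chr1:8878637-8878936, - strand: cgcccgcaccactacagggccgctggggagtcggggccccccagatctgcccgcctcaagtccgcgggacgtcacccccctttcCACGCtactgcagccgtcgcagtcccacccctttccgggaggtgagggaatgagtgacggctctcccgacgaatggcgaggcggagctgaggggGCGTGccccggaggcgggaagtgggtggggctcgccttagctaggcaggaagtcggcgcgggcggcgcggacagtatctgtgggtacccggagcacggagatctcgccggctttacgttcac
ENO3, chr17:4950302-4950601, + strand: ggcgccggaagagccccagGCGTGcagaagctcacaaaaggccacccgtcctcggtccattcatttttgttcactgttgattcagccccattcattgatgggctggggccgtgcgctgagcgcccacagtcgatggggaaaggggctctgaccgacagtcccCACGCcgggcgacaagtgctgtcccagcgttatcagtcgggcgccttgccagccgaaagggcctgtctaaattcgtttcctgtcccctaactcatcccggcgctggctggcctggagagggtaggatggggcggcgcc
PFKFB1, chrX:54994139-54994438, - strand: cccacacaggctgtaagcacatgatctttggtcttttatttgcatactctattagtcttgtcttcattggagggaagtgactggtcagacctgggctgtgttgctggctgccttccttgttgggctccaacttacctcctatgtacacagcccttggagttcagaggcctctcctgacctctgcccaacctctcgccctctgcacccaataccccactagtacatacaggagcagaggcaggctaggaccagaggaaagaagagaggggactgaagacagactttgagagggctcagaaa
Counting both strands, HK2 held 2 ACGTG and 1 GCGTG, PGK1 held 3 ACGTG and 1 GCGTG, and ENO1 and ENO3 each held 2 GCGTG and no ACGTG. Neither core is in the 300 bases shown for PFKFB1. Over all 15843 promoters of the same length, 55.9% held at least 1 of the cores, against 17 of the 28 member promoters (60.7%). ACGTG alone was in 9 of the 28 and in 23.7% of all promoters, GCGTG in 12 of the 28 and in 44.1%, and CACGTG, which contains ACGTG on both strands, in 4 of the 28 and in 8.9%. A match describes these letters and is not a binding site.

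Levels are given as protein-coding TPM, a measure of transcript number corrected for gene length, after the nuclear protein-coding genes of a library were rescaled to sum to 1000000. Those genes held 11.2% to 15.5% of the deposited TPM in sorted libraries and 76.7% to 77.6% in bulk libraries. Sorted libraries held 6129026 to 18485359 recovered reads, with the library of S4 replicate 3 the deepest, and bulk libraries held 22340963 to 24423744. The hepatocyte marker ALB averaged 24197 in sorted libraries and 19225 in bulk libraries, and APOB was listed at 1.12 in sorted and 0.111 in bulk libraries. Markers of fibroblasts summed to 10.6 to 35.2 in sorted libraries and 12.8 to 13.7 in bulk, those of endothelium to 6.80 to 24.1 and 0.755 to 1.16, and those of skeletal muscle to 2.99 to 33.5 and 4.30 to 9.27. The 5 leukocyte markers summed to 1209 to 3365 in sorted and 2347 to 2570 in bulk libraries, nearly all of it LYZ, while PTPRC, which defines leukocytes, was at 0 to 0.324 and at 0. In bulk material fewer cells of a type and less RNA per cell cannot be told apart.

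The 31 members together took 3299.8 to 3589 protein-coding TPM in replicate 3 libraries, 5561 to 5817 in replicate 2 libraries and 11141 to 11422 in bulk libraries. GAPDH, ENO1 and TPI1, which act in the lower steps of the path after the sugar is split, made up 47.2% to 54.0% of that sum in sorted libraries and 79.9% to 80.2% in bulk. Of the 31, 26 had a mean of at least 1 and entered the tests, and 12 averaged over 100 in sorted libraries. PKLR, LDHA, LDHB, SLC16A1 and PDK4 did not enter them. Levels of different genes depend on the length that the authors' gene model gives each, for example 10680 bases for GPI and 2396 for GAPDH. By the RefSeq annotation of GRCh38, GAPDH (chr12:6534517-6538371), TPI1 (chr12:6867420-6870948) and ENO2 (chr12:6914580-6923697) lie close together on chromosome 12, and ENO1 is at chr1:8861000-8878686.

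**Figure D1:**
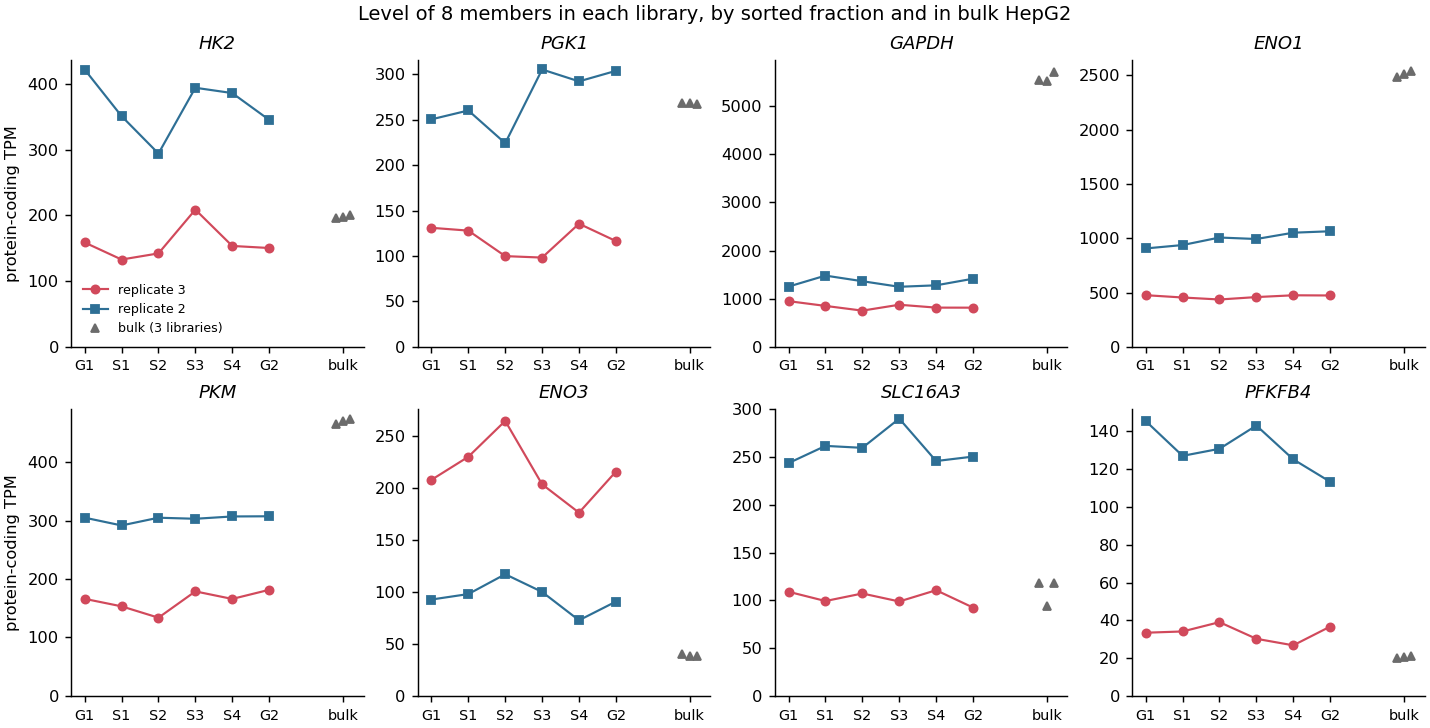
Level of 8 members in each library, in protein-coding TPM (linear axis from 0), by sorted fraction for replicate 3 (circles) and replicate 2 (squares), with the 3 bulk libraries as triangles. The replicate 3 line lies below the replicate 2 line in every fraction for 7 of the 8 genes and above it for ENO3.

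Between fractions of the cell cycle no member passed the test in any of 5 comparisons (G2 against G1, S against G1, G2 against S, the slope over S1 to S4, and any difference among the 6 fractions, limma with Benjamini-Hochberg adjustment over 13492 genes), and neither did any other gene, so 0% were called in each. At an unadjusted p under 0.05 there were 285, 553, 197, 580 and 371 genes, which is 2.11%, 4.1%, 1.46%, 4.3% and 2.75% of those tested. The 26 members tested had a median log2 difference of 0.00685 for G2 against G1, where all genes tested had -0.0219, and of -0.0471 for S against G1, where all genes had -0.0384. For G2 against S the medians were -0.000443 and 0.0205, and for the slope per S fraction -0.011 and 0.021. The fit behind these comparisons has no term for the replicate number, since the labels name no shared culture. With the number as a block, genes passed for G2 against G1, S against G1, the slope and any difference, as given at the end. PFKFB1 was the only member among them.

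PFKFB1, the liver form of the enzyme that makes and breaks down an allosteric activator of phosphofructokinase, was the only member with an unadjusted p under 0.05 in any of the 5. In replicate 3 it had 80.7 protein-coding TPM in G1, 55.4 in S1, 47.9 in S2, 41.1 in S3, 33.3 in S4 and 63.0 in G2. In replicate 2 it had 77.7 in G1, 52.6 in S1, 50.4 in S2, 39.1 in S3, 40.3 in S4 and 48.0 in G2. G1 was the highest fraction under both numbers, and no S library reached the G1 library of its number, a pattern that no other member showed and that 8.29% of all genes tested showed (5.07% had every S library above). S minus G1 was -0.82 ± 0.17 on the log2 scale (SE, 95% interval -1.19 to -0.45). Its unadjusted limma p was 0.000637 and its adjusted p 0.477. With the replicate number as a block, PFKFB1 passed for S against G1 (limma adjusted p 0.0103) and for any difference among the 6 fractions (0.0441). G2 minus G1 was -0.52 ± 0.21 (unadjusted limma p 0.0334, adjusted p 1), and the slope was -0.19 ± 0.07 per S fraction (unadjusted limma p 0.0159, adjusted p 0.999). PFKFB1 rested on 62 to 179 recovered reads in sorted libraries.

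Other members shared parts of an order between the numbers without passing the test. ENO3, the enolase known from muscle, was highest in S2 (265 in replicate 3 and 117 in replicate 2) and lowest in S4 (177 and 72.9) under both numbers, and its slope was -0.15 ± 0.21 per S fraction (unadjusted limma p 0.496, adjusted p 0.999). SLC2A1, the glucose transporter of most dividing cells, was higher in S1 and S2 than in S3 and S4 under both numbers, with its highest value in S1 in replicate 3 (184) and in S2 in replicate 2 (361), and its slope was -0.17 ± 0.17 (unadjusted limma p 0.337, adjusted p 0.999). ENO2, the enolase first described in neurons, was lower in S1 and S2 than in G1, S3 and S4 under both numbers, with its lowest value in S1 in replicate 3 (160.2) and in S2 in replicate 2 (120.3), and its slope was 0.14 ± 0.07 (unadjusted limma p 0.0854, adjusted p 0.999). HK2, which phosphorylates incoming glucose, differed between G2 and G1 by -0.18 with a 95% interval of -1.75 to 1.38, and GAPDH by -0.02 with an interval of -0.98 to 0.93. These intervals include the spread between the 2 libraries of a fraction, which carry different replicate numbers. With the replicate number as a block, the SE of the slope was 0.04 for ENO3, 0.05 for SLC2A1 and 0.04 for ENO2. The slopes did not pass in that fit either (limma adjusted p 0.0574, 0.133 and 0.117), and fits on recovered reads are given at the end. Among 8 cell cycle genes used to check the fractions, the largest G2 minus G1 differences were 2.30 for AURKB, 2.07 for PLK1 and 1.97 for CCNB1, and these did not pass the adjusted test either (adjusted p of at least 0.646 by limma).

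**Figure D2:**
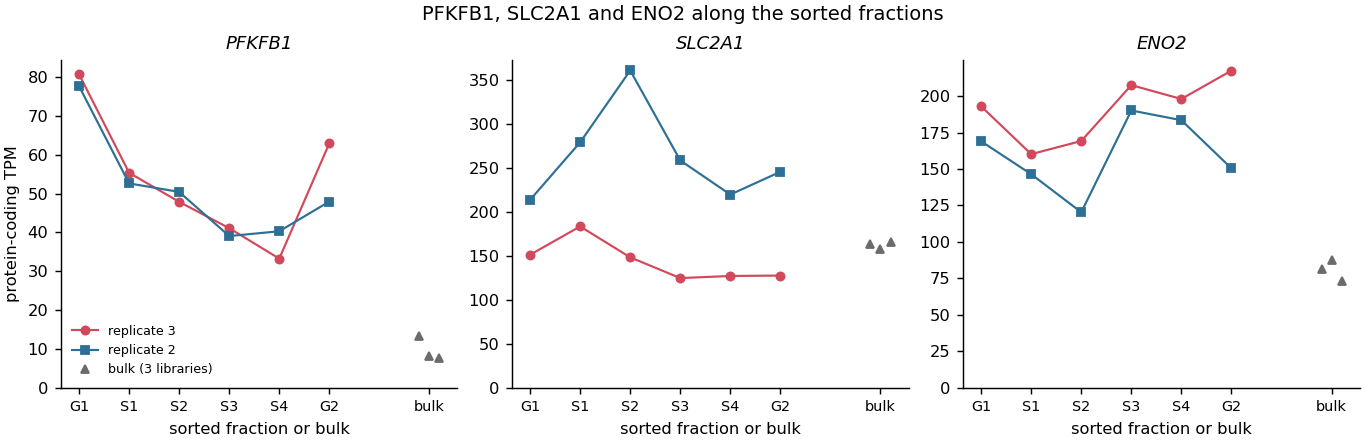
Protein-coding TPM (linear axis from 0) of PFKFB1, SLC2A1 and ENO2 in the 6 sorted fractions for replicate 3 (circles) and replicate 2 (squares), with the 3 bulk libraries as triangles. PFKFB1 runs from 80.7 and 77.7 in G1 down to 33.3 and 40.3 in S4 with nearly the same values under both numbers, while SLC2A1 is higher in S1 and S2 than in S3 and S4, and ENO2 lower in S1 and S2 than in S3 and S4, under both numbers.

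Libraries numbered 3 and libraries numbered 2 differed in most members. In the test of replicate 3 against replicate 2, with the fraction as a term, 17 members were lower in replicate 3 and 4 were higher, and 5 of the 26 tested did not pass. Of all 13492 genes tested, 46% were called (12.3% lower and 33.7% higher). The members' median log2 difference was -0.71, and that of all genes was 0.19. In 16 members every replicate 3 library was below every replicate 2 library, which held for 5.91% of all genes, and in ENO3 and PFKFB2 every replicate 3 library was above, which held for 15.8%. The labels give nothing about a number except the number, and the 6 libraries of a number are different fractions that may share a culture. Scaling by median ratios, which moves the median of all genes to 0.01, gave 2635 genes higher and 2621 lower (50.1% of calls higher, against 73.3% above). It left 18 members lower and 2 higher, with PDK2 added at -0.44 (adjusted p 0.00759) and ENO2 and SLC2A2 no longer called.

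Of the glucose and lactate transporters tested, only SLC2A2 was higher in replicate 3. SLC16A3, which exports lactate from glycolytic cells, had 92.5, 103 and 111 protein-coding TPM (lowest, median and highest of 6 libraries) in replicate 3, against 244, 255 and 290.3 in replicate 2. SLC2A1 had 125, 138 and 184 in replicate 3, against 214, 252 and 361 in replicate 2. Both sets of libraries stood apart without overlap. SLC16A3 was lower, with a log2 difference of -1.32 ± 0.07 (SE, limma adjusted p 2.77e-07), and so was SLC2A1, at -0.86 ± 0.10 (adjusted p 3.84e-05). SLC2A3, a high-affinity glucose transporter, had 62.5, 79.0 and 85.8 in replicate 3, against 81.8, 92.0 and 107 in replicate 2, and the libraries overlapped although each fraction was lower in replicate 3. Its difference was -0.29 ± 0.07 (limma adjusted p 0.00624), and -0.26 with an adjusted p of 0.156 on the deposited TPM scale. SLC2A2, the low-affinity transporter of hepatocytes, had 55.3, 83.6 and 99.1 in replicate 3, against 44.8, 61.9 and 74.2 in replicate 2, and was higher in 5 of 6 fractions. Its difference of 0.39 ± 0.14 (limma adjusted p 0.0356) lost its call without a library of G1, S2, S3 or S4 of either number. The differences were then 0.24 to 0.42 and the adjusted p 0.0515 to 0.1. The call was also lost on deposited TPM (0.37, limma adjusted p 0.102) and with median ratios (0.20, adjusted p 0.275). It was lost as well without the trend (adjusted p 0.0947) and with no filter on low values (0.0605).

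In the upper steps of the path, where glucose is phosphorylated and split, HK2 had 133, 152 and 209 protein-coding TPM in replicate 3, against 294, 369 and 422 in replicate 2. PFKL, the liver phosphofructokinase that commits sugar to glycolysis, had 91.7, 111 and 139 in replicate 3, against 161, 175 and 185 in replicate 2. ALDOA, the aldolase of muscle and of most tissues, had 39.2, 43.2 and 49.0 in replicate 3, against 59.9, 74.3 and 91.7 in replicate 2. None of these 3 overlapped between the numbers. All 3 were lower in replicate 3, with log2 differences of -1.21 ± 0.08 for HK2 (SE, limma adjusted p 9.26e-07), -0.63 ± 0.07 for PFKL (adjusted p 4.26e-05) and -0.75 ± 0.09 for ALDOA (adjusted p 7.74e-05). GPI, which isomerises glucose 6-phosphate, had 19.0, 27.0 and 34.1 in replicate 3, against 41.0, 46.7 and 55.2 in replicate 2 (-0.80 ± 0.14, limma adjusted p 0.000764). ALDOC, the aldolase known from brain, had 7.65, 17.0 and 25.4 in replicate 3, against 27.5, 38.6 and 43.7 in replicate 2 (-1.11 ± 0.21, limma adjusted p 0.0011). HK1, PFKM and PFKP were low in every sorted library, with highest values of 3.15, 10.1 and 3.27, and their differences of -0.23 ± 0.40, 0.29 ± 0.26 and 0.30 ± 0.31 did not pass.

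In the lower steps of the path, GAPDH, which makes NADH, had 752, 832 and 949 protein-coding TPM in replicate 3, against 1247, 1320.3 and 1479 in replicate 2. ENO1, the enolase of most tissues, had 436, 466 and 476 in replicate 3, against 906, 1000.0 and 1064 in replicate 2. PGK1, which makes ATP, had 98.3, 122 and 136 in replicate 3, against 224, 276 and 305 in replicate 2. Libraries of the 2 numbers did not overlap for any of them. The log2 difference was -0.67 ± 0.08 for GAPDH (SE, limma adjusted p 3.85e-05), -1.10 ± 0.06 for ENO1 (adjusted p 2.99e-07) and -1.20 ± 0.09 for PGK1 (adjusted p 2.74e-06). TPI1, which interconverts the triose phosphates, had 317, 345 and 369.7 in replicate 3, against 583, 626 and 743 in replicate 2 (-0.89 ± 0.06, limma adjusted p 1.22e-06). PGAM1, the phosphoglycerate mutase, had 81.5, 88.5 and 104 in replicate 3, against 116, 145 and 149 in replicate 2 (-0.63 ± 0.08, limma adjusted p 0.000125). PKM, the pyruvate kinase of growing cells, had 134, 166 and 182 in replicate 3, against 292, 305 and 307 in replicate 2 (-0.90 ± 0.07, limma adjusted p 3.67e-06).

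The 2 remaining enolases went the other way from ENO1. ENO3 had 177, 212 and 265 protein-coding TPM in replicate 3, against 72.9, 95.5 and 117 in replicate 2, with no overlap. Its difference was 1.18 ± 0.06 on the log2 scale (SE, limma adjusted p 2.61e-07). ENO2 had 160.2, 196 and 217 in replicate 3, against 120.3, 159.7 and 190.2 in replicate 2, higher in each fraction but with overlapping libraries. Its difference of 0.26 ± 0.08 (limma adjusted p 0.0165) lost its call without the G2 library of replicate 2 or of replicate 3 (0.21 in both, adjusted p 0.0591 and 0.0595). It also lost it on the deposited TPM scale (0.27, adjusted p 0.211) and with median ratios (0.07, adjusted p 0.482). The 4 skeletal muscle markers summed to 8.20 to 33.5 in replicate 3 libraries and 2.99 to 24.3 in replicate 2 libraries, with 1 of 3 tested higher in replicate 3, and their part in the ENO3 difference was not tested.

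The regulators showed the widest differences. PFKFB4, a PFKFB form known as a target of hypoxia-inducible factors, had 26.8, 33.8 and 39.1 protein-coding TPM in replicate 3, against 113, 129 and 146 in replicate 2. PDK1, which inhibits pyruvate dehydrogenase and so keeps pyruvate out of mitochondria, had 36.7, 40.8 and 46.2 in replicate 3, against 99.7, 120.4 and 133 in replicate 2. The libraries of both genes stood far apart, at -1.94 ± 0.10 for PFKFB4 (SE, limma adjusted p 1.54e-07) and -1.5 ± 0.08 for PDK1 (adjusted p 2.99e-07). PFKFB3, the form of proliferating cells, had 6.21, 9.74 and 13.8 in replicate 3, against 15.3, 19.9 and 34.0 in replicate 2 (-1.08 ± 0.21, limma adjusted p 0.00163). PFKFB2, known from heart, had 24.7, 30.3 and 36.6 in replicate 3, against 15.9, 19.2 and 22.2 in replicate 2, and was higher by 0.66 ± 0.12 (limma adjusted p 0.000708) in every fraction. The annotation places the protein-coding gene YOD1 over 9268 of the 46612 bases of the PFKFB2 span, and its part in the PFKFB2 values was not tested. PFKFB1 did not pass (0.04 ± 0.10, limma adjusted p 0.769). PDK2, another kinase of pyruvate dehydrogenase, missed the adjusted threshold (-0.25 ± 0.11, 95% interval -0.50 to -0.01, limma adjusted p 0.083) and passed it with median ratios, as given above.

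**Figure D3:**
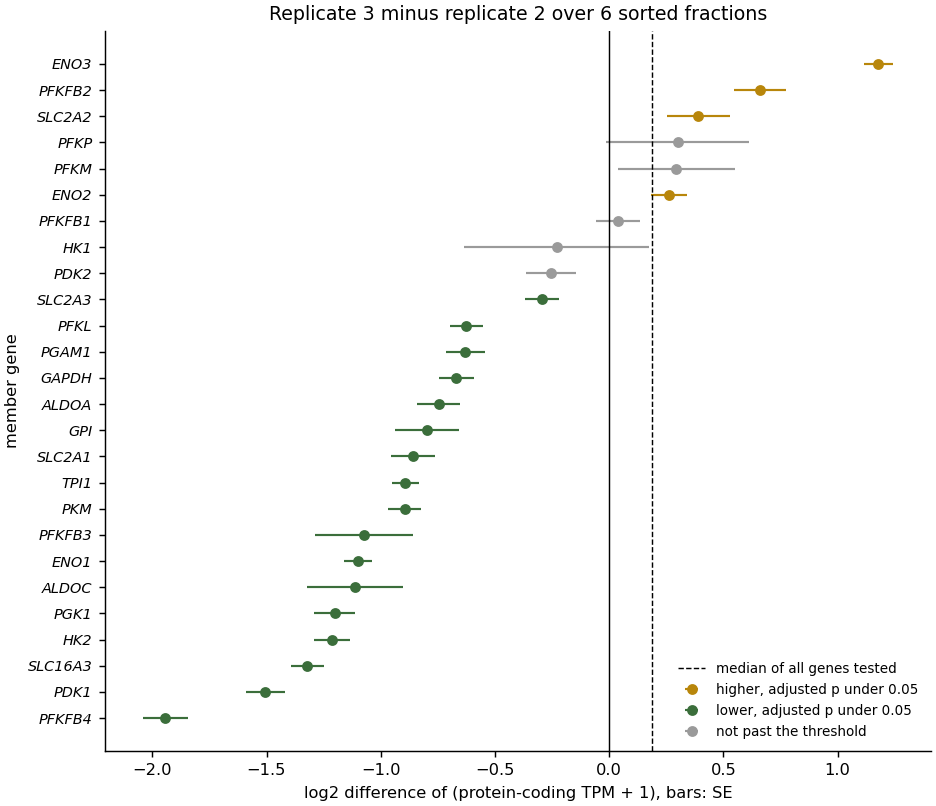
Log2 difference of (protein-coding TPM + 1), replicate 3 minus replicate 2 over the 6 sorted fractions, for the 26 members tested, with bars of 1 SE and a dashed line at the median of all genes tested (0.19). Of the members, 17 are lower and 4 higher at an adjusted p under 0.05, from -1.94 for PFKFB4 to 1.18 for ENO3, and the calls of ENO2 and SLC2A2 are lost with median-ratio scaling.

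Other genes of glucose metabolism were taken from lists made for the same purpose. Among all genes tested, 12.3% were lower in replicate 3 and 33.7% were higher, with a median of 0.19. Of 16 regulators and hypoxia markers, 8 were lower in replicate 3 and 3 were higher, with a median of -0.29. The 3 with the highest mean were MLXIPL, a glucose-responsive transcription factor (-0.35, limma adjusted p 0.00218), VEGFA, a vascular growth factor (-0.68, adjusted p 7.87e-06), and MYC (0.08, adjusted p 0.597). Members of the list named after their values were seen are CA9 (-3.40), NDRG1 (-2.18), EGLN3 (-1.91) and BNIP3 (-1.35), all textbook targets of hypoxia-inducible factors, and HIF1A itself, which was higher (0.72, limma adjusted p 4.28e-05). ADM, also such a target, was higher (0.30, limma adjusted p 0.0482), as was TIGAR, a regulator of glycolysis (0.91, adjusted p 0.00915). Of 7 gluconeogenesis genes, 5 were lower and none higher, and the 3 with the highest mean were PCK2 (-1.34), PCK1 (-1.09) and PC (-0.39). G6PC1, which releases free glucose and was also named after its value was seen, averaged 8.37 in replicate 3 and 125 in replicate 2 (-3.75 ± 0.11, limma adjusted p 2.35e-09).

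Other lists had other balances, to be read against the 33.7% of all genes that were higher and the 12.3% that were lower. Of 9 genes of pyruvate entry into mitochondria, 7 were higher in replicate 3 and none lower, and the 3 with the highest mean were MPC1 (0.38), PDHA1 (0.12, limma adjusted p 0.218) and PDHX (0.34). Of 7 pentose phosphate genes, 3 were higher and none lower, led by RPE (0.55), PGD (0.39) and TKT (0.15, limma adjusted p 0.118). Of 8 glycogen genes tested, 2 were higher and 3 lower. BSG, the chaperone of lactate transporters, was lower, at -0.99 (limma adjusted p 2.4e-06). Of 10 hepatocyte markers, 8 were lower and none higher, and of 8 cell cycle genes 6 were higher and none lower. ALB averaged 15851 in replicate 3 and 32542 in replicate 2, and the leukocyte markers summed to 1209 to 1757 in replicate 3 and 2591 to 3365 in replicate 2. The fibroblast markers summed to 10.6 to 16.6 in replicate 3 and 18.6 to 35.2 in replicate 2, and the endothelial ones to 6.80 to 14.8 and 12.6 to 24.1. The part of any of these in the members' difference was not tested.

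In the 16 genes with a promoter sequence that were lower in replicate 3, 12 held ACGTG or GCGTG (75.0%), as did 2 of 3 that were higher, against 55.9% of all promoters. PFKFB4 held 1 core and PDK1 and SLC16A3 held none, and these 3 had the widest differences among the lower members. The window lies 6333 bases inside the gene span for PFKFB4 and 10501 inside for SLC16A3, and at the end of the span for PDK1. Whether hypoxia-inducible factors act on any of these genes was not tested.

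Against bulk libraries, the members were lower in sorted libraries in the abundant lower steps and higher in several isoenzymes and regulators. Of 26 members, 9 were higher and 7 lower in sorted libraries, and 10 did not pass. Of all 13041 genes tested 71.6% were called, 55.1% higher and 16.5% lower, so the share of members higher was under that of all genes and the share lower was above it. In 9 members every sorted library was above every bulk library (46.5% of all genes) and in 8 every one was below (14.6%). The median of all genes was itself 0.79, and that of the members 0.25. The split depends on the scaling. On deposited TPM, where short and noncoding RNA takes most of the sorted libraries, no member was higher and 18 were lower, with 28.5% of all calls higher. With median ratios 6 members were higher and 12 lower, with 52.2% of all calls higher, against 77% on the protein-coding scale. Some differences are therefore also given relative to the median of all genes.

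The lower steps held the largest differences to the lower side. GAPDH had 752, 1098 and 1479 protein-coding TPM (lowest, median and highest) in the 12 sorted libraries, against 5532, 5512 and 5706 in the 3 bulk libraries. ENO1 had 436, 691 and 1064 in sorted libraries, against 2488, 2511 and 2536 in bulk. PGAM1 had 81.5, 110.0 and 149 in sorted libraries, against 397, 396 and 412 in bulk. Every sorted library of these 3 was below every bulk library, and all 3 were lower under each scaling. The log2 difference was -2.40 ± 0.25 for GAPDH (SE, limma adjusted p 4e-06; -3.19 relative to the median), -1.89 ± 0.37 for ENO1 (adjusted p 0.000759; -2.68) and -1.83 ± 0.23 for PGAM1 (adjusted p 2.17e-05; -2.62). PKM had 134, 237 and 307 in sorted libraries, against 465, 470.5 and 474 in bulk (-1.08 ± 0.31, limma adjusted p 0.00818). TPI1 had 317, 476 and 743 in sorted libraries, against 906, 888 and 916 in bulk. Its difference of -0.95 ± 0.31 (limma adjusted p 0.0152) missed the threshold without bulk replicate 3 (-0.94, adjusted p 0.051). GPI had 19.0, 37.6 and 55.2 in sorted libraries, against 71.2, 85.9 and 74.9 in bulk (-1.12 ± 0.31, limma adjusted p 0.00646). PGK1 overlapped between the kinds, with 98.3, 180.0 and 305 in sorted libraries, against 269, 269 and 268 in bulk (-0.59 ± 0.41, limma adjusted p 0.215). PGK1 was lower with median ratios (-1.34, adjusted p 0.0257) and on deposited TPM (-3.13, adjusted p 1.54e-05).

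ALDOA went against the rest of the enzymes shared by most tissues. It had 39.2, 54.5 and 91.7 protein-coding TPM in sorted libraries, against 8.14, 4.92 and 8.59 in bulk, and was higher by 2.83 ± 0.29 (SE, limma adjusted p 3.82e-06). On deposited TPM its difference was 0.35 (adjusted p 0.263). The annotation places another protein-coding gene over 6136 of its 6142 bases, so the division of reads between them is uncertain. ALDOC had 7.65, 26.4 and 43.7 in sorted libraries, against 45.4, 53.1 and 49.0 in bulk, all above the sorted libraries, but did not pass (-0.97 ± 0.43, limma adjusted p 0.0614). It was lower with median ratios (-1.71, adjusted p 0.00822) and on deposited TPM (-3.21, adjusted p 1.59e-06).

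ENO3 had 72.9, 147 and 265 protein-coding TPM in sorted libraries, against 40.8, 38.4 and 38.6 in bulk (1.84 ± 0.40 on the log2 scale, SE, limma adjusted p 0.00143). ENO2 had 120.3, 176 and 217 in sorted libraries, against 81.7, 87.3 and 73.1 in bulk (1.10 ± 0.13, limma adjusted p 1.63e-05). Both were higher here and with median ratios. On deposited TPM ENO2 was lower (-1.45, limma adjusted p 1.11e-05), and ENO3 had a difference of -0.70 that did not pass (adjusted p 0.124). PFKM, the muscle phosphofructokinase, had 3.75, 6.80 and 10.1 in sorted libraries, against 1.46, 1.56 and 1.57 in bulk (1.55 ± 0.28, limma adjusted p 0.000363). PFKL had 91.7, 150.2 and 185 in sorted libraries, against 78.1, 62.4 and 76.4 in bulk (0.95 ± 0.23, limma adjusted p 0.00303), only 0.16 above the median of all genes and -1.59 on deposited TPM. HK2 had 133, 251 and 422 in sorted libraries, against 196, 197 and 200.5 in bulk, and did not pass (0.27 ± 0.41, limma adjusted p 0.571).

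Among the regulators, PFKFB1 had 33.3, 49.2 and 80.7 protein-coding TPM in sorted libraries, against 13.4, 8.14 and 7.59 in bulk (2.31 ± 0.16, SE, limma adjusted p 1.36e-07). PDK1 had 36.7, 73.0 and 133 in sorted libraries, against 13.0, 12.8 and 11.6 in bulk (2.40 ± 0.51, limma adjusted p 0.0012). For both genes every sorted library was above every bulk library, yet on deposited TPM the differences were -0.15 and -0.086. PFKFB4 had 26.8, 76.2 and 146 in sorted libraries, against 20.0, 20.8 and 21.1 in bulk. Its difference of 1.63 ± 0.65 (limma adjusted p 0.0408) lost its call without any single replicate 2 sorted library or bulk library (1.45 to 1.65, adjusted p 0.0555 to 0.103). PFKFB2 had 15.9, 23.5 and 36.6 in sorted libraries, against 13.9, 14.98 and 12.4 in bulk (0.76 ± 0.25, limma adjusted p 0.0177). It was at the median of all genes (-0.03 relative to it), lost its call without bulk replicate 1 (0.77, adjusted p 0.0549) or 3 (0.70, adjusted p 0.0755), and was -1.51 on deposited TPM. PFKFB3 (0.81 ± 0.42) and PDK2 (0.19 ± 0.15) did not pass. With median ratios PDK2 was lower, at -0.55 (limma adjusted p 0.0222).

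For SLC2A1, SLC2A2 and SLC16A3 the call depended on the scaling, while SLC2A3 was lower under each scaling. SLC2A3 had 62.5, 85.4 and 107 protein-coding TPM in sorted libraries, against 111, 109.6 and 115 in bulk. Its log2 difference was -0.41 ± 0.13 (SE, limma adjusted p 0.0151), a call lost without bulk replicate 1 (-0.41, adjusted p 0.052) or 3 (-0.39, adjusted p 0.0641). SLC2A1 (0.24 ± 0.31), SLC2A2 (-0.40 ± 0.20) and SLC16A3 (0.57 ± 0.45) did not pass. With median ratios SLC2A2 was lower, at -1.15 (limma adjusted p 6.29e-05), and SLC2A3 was -1.16 (adjusted p 0.000148). On deposited TPM all 4 were lower, at -2.87 for SLC2A2, -2.90 for SLC2A3, -2.31 for SLC2A1 and -1.97 for SLC16A3 (limma adjusted p of 0.00128 or less).

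**Figure D4:**
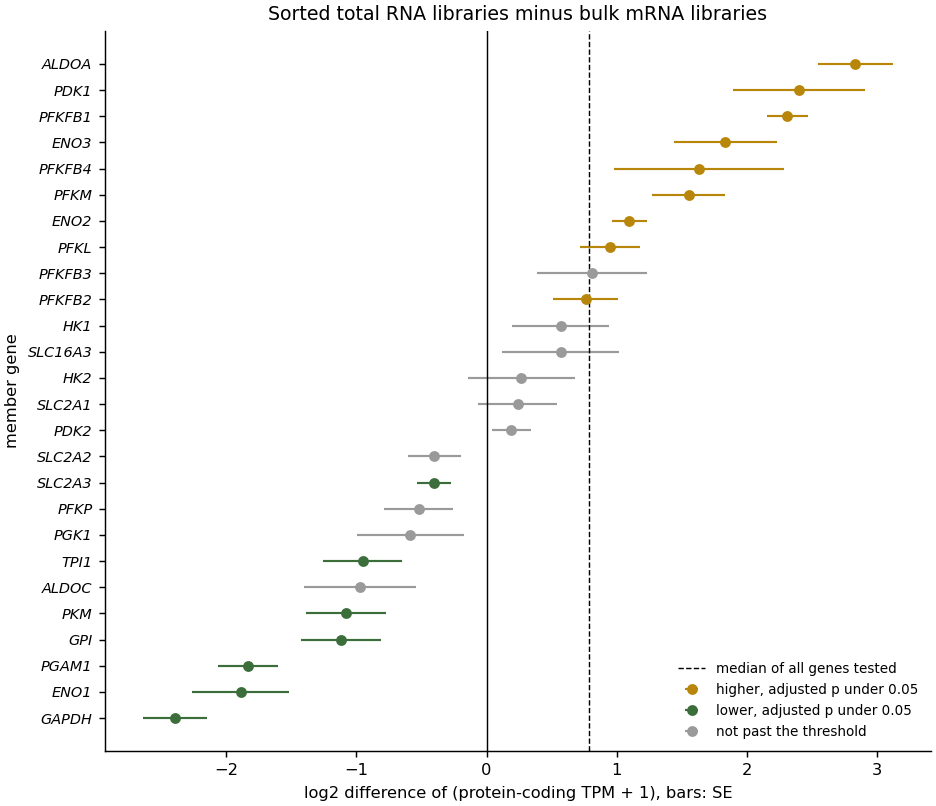
Log2 difference of (protein-coding TPM + 1), the mean of the 6 sorted fractions minus bulk, for the 26 members tested, with bars of 1 SE and a dashed line at the median of all genes tested (0.79). Of the members, 9 are higher and 7 lower at an adjusted p under 0.05, from 2.83 for ALDOA to -2.40 for GAPDH, while on deposited TPM none is higher.

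The share of an isoenzyme in the summed level of its group does not depend on how a library is scaled. Of 20 shares, 10 differed between sorted and bulk libraries in a two-sided exact permutation test with adjustment over the 20. The test treats the 12 sorted libraries as exchangeable, although shares differed by replicate number. Shares of the same group are tied to each other and are not separate results. ENO1 held 66.3% ± 13.9 of enolase (SD, n = 12) in sorted libraries and 95.4% ± 0.298 (SD, n = 3) in bulk libraries. ENO2 held 17.4% in sorted and 3.07% in bulk libraries, and ENO3 16.3% and 1.49%. The ENO1 share was 50.1% to 55.9% in replicate 3 libraries and 77.4% to 81.5% in replicate 2 libraries, so its sorted mean falls between these ranges. ALDOA held 69.2% ± 7.68 of aldolase A and C in sorted libraries and 12.9% ± 3.81 in bulk libraries. Another annotated protein-coding gene covers 6136 of the 6142 bases of ALDOA, so the division of reads behind this share is uncertain. ALDOA rested on 147, 80 and 142 recovered reads in bulk replicates 1, 2 and 3. PDK1 held 61.7% ± 11.2 of its group in sorted libraries and 24.9% ± 1.30 in bulk libraries, and PDK2 38.0% and 73.5%. SLC2A3 held 24.0% of the glucose transporters in sorted libraries and 30.5% in bulk. The adjusted p was 0.00733 in the exact permutation test for the shares of ENO1, ENO2, ALDOA, PDK1, PDK2 and SLC2A3, the smallest that the splits of 12 against 3 libraries gave in this family.

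The other 4 shares that passed were smaller or less stable. PFKP held 1.15% of phosphofructokinase in sorted libraries and 3.35% in bulk libraries. PDK4 held 0.264% and 1.60% of its group (exact permutation test, adjusted p 0.0110 for both shares). PFKP rested on 5 to 31 recovered reads in sorted libraries and 70 to 111 in bulk libraries. PDK4 rested on 0 to 5 and 9 to 22, and its level was too low to enter the tests of levels. PFKFB3 held 8.85% and 15.1% of its group (exact permutation test, adjusted p 0.0147), with a difference of -5.19 points and an adjusted p of 0.0733 without bulk replicate 3. The ENO3 share (exact permutation test, adjusted p 0.0352) missed the threshold without the replicate 3 library of G1, S3, S4 or G2 (14.1 to 14.4 points, adjusted p 0.055) or without any bulk library (14.8 points, adjusted p 0.0999 to 0.11). Within groups limited to the listed genes, HK2 (with HK1), PKM (with PKLR) and SLC16A3 (with SLC16A1) each made up at least 98.4% in every library, of sorted and of bulk cells. The hexokinase HKDC1, which is outside the group, averaged 78.5 protein-coding TPM in sorted libraries and 77.4 in bulk libraries, and PKLR and SLC16A1 were listed near 0.

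Shares also differed between the replicate numbers, in the same direction in all 6 fractions for several genes. ENO1 held 53.2% of enolase in replicate 3 and 79.5% in replicate 2, and ENO3 24.9% and 7.67%. PFKFB4 held 26.6% of its group in replicate 3 and 58.6% in replicate 2, PFKFB1 41.3% and 22.8%, and PFKFB2 24.4% and 8.59%. PDK1 held 51.5% in replicate 3 and 71.8% in replicate 2, and SLC2A1 47.7% and 62.5%. The exact sign-flip test over 6 fractions cannot go below a p of 0.03125, and the adjusted p of these shares was 0.0625, so none of the 20 passed.

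**Figure D5:**
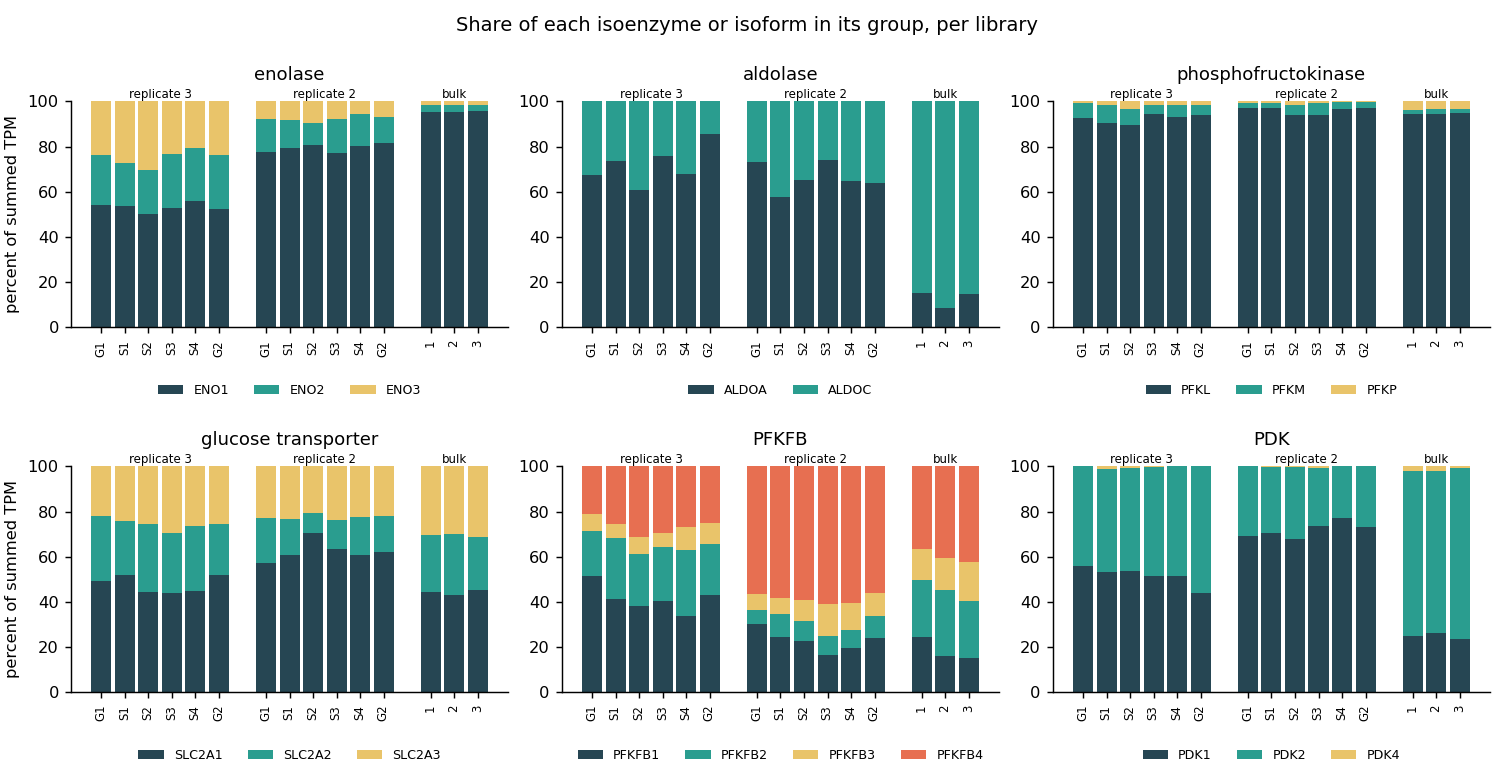
Share of each isoenzyme or isoform in the summed TPM of its group, in percent, as stacked bars for each replicate 3, replicate 2 and bulk library, in 6 groups. ENO1 fills at least 95.2% of the enolase bar in bulk and 50.1% to 81.5% in sorted libraries. ALDOA fills 57.8% to 85.7% of the aldolase bar in sorted libraries against 8.47% to 15.2% in bulk. Another annotated gene overlaps ALDOA, so its share is uncertain.

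Of the 31 members, 5 were at or near 0 everywhere, in bulk as in sorted libraries. LDHA, which reduces pyruvate to lactate, had 0 to 4.57 protein-coding TPM in sorted libraries, against 0.845, 0.586 and 1.92 in bulk, and its highest value rested on 21 recovered reads. LDHB, the other main subunit of lactate dehydrogenase, had 0 to 2.20 in sorted libraries and was listed at 0 in bulk. SLC16A1, a lactate transporter, had 0 to 0.507 in sorted libraries, against 0.0668, 0 and 0 in bulk. PKLR, the pyruvate kinase of adult liver, had 0 to 2.06 in sorted libraries, against 0.0669, 0 and 0 in bulk. PDK4, a kinase induced by fasting, had 0 to 1.02 in sorted libraries, against 1.03, 0.932 and 0.459 in bulk. APOB, a gene that hepatocytes use heavily, was also near 0, so these genes are only said to be listed at these values.

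Lists of other genes of glucose metabolism were counted in the same sorted against bulk comparison, where 55.1% of all genes were higher and 16.5% lower. Gluconeogenesis, regulators, glycogen and pyruvate entry each had a share of higher genes below that of all genes. Of 7 pentose phosphate genes, 5 were lower in sorted libraries and 1 was higher, and the 3 with the highest mean were RPE (0.85), PGD (-2.47) and TKT (-1.27). Of 7 gluconeogenesis genes, 3 were higher and none lower, led by PCK2, which averaged 88.2 in sorted libraries and 2.27 in bulk libraries (4.61 ± 0.51 on the log2 scale, SE, limma adjusted p 7.71e-06). PCK1 averaged 78.7 in sorted libraries and 2.68 in bulk libraries, and PC 68.6 and 67.9. Of 16 regulators and hypoxia markers, 7 were higher and 3 lower, with MLXIPL at 1238 in sorted libraries and 258 in bulk libraries, VEGFA at 286 and 66.1, and MYC at 201 and 229. Of 8 glycogen genes 4 were higher and 1 lower, and of 9 pyruvate entry genes 3 were higher and 1 lower.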

How the data were processed

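RNA was measured in 12 sorted and 3 bulk HepG2 libraries, and 18 further samples, of Repli-seq, were not used here. Per the submitters' processing notes, cutadapt, Trimmomatic, HISAT2, BWA and SAMtools were used with the build hg38. No source used here gives their roles or versions, the counting program or the annotation. Values were deposited as log2(TPM + 1) per gene, as the back-transformed sums of 1000000 in all 15 libraries show.

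From these values TPM was restored, and nuclear protein-coding genes (RefSeq type by symbol, 19183 identifiers) were rescaled to 1000000 per library. Of 78932 identifiers 61481 had a symbol. Steps in TPM gave whole reads (within 0.0001 read) in 50310 of the 50310 genes detected in 3 or more libraries. Read numbers and gene lengths in the text are recovered this way, and a limma voom fit on these reads was added after seeing the data. Other alternatives were deposited TPM, median-ratio scaling, other pseudocounts and filters, no trend, a replicate block and leaving out each library.

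The test was limma 3.58.1 (R 4.3.3) with an intensity trend on log2(value + 1), in genes with a mean of at least 1, with Benjamini-Hochberg adjustment over all genes tested at 0.05. The pseudocount understates the change of low genes. The 12 sorted libraries shared a fit with 1 mean per fraction, all 15 a fit for sorted against bulk, and replicate 3 against replicate 2 had the fraction as a term. Isoenzyme shares had exact permutation tests, two-sided, adjusted over 20 shares. Tested on simulated data, the G2 against G1 fit over 13492 genes recovered 7.46% of log2 changes of 1 and 65.2% of changes of 2. The fit for sorted against bulk over 13041 genes recovered 64.2% and 93.9%, and that for replicates 56.7% and 95.5%. The simulated spread was taken around the group means and so held the differences between replicate numbers, which the fit for replicates removes. The values for replicates therefore do not give the recovery of that test in these data.

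The members, lists and tests were chosen with earlier results of these data known. The rule for named genes asked for full values of the 2 highest members of each isoenzyme group, the single-gene steps and every called member. From each other list it asked for the 3 genes with the highest mean. It was followed in part. Glycogen genes were only counted, HK1 and PDK2 were given without full values, and of the other isoenzymes and partners only BSG and HKDC1 are named. Counts over the list of other isoenzymes and partners are not reported here. Figures were drawn with matplotlib 3.10.9.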

Additional observations from a re-analysis of the deposited data

How the results depend on the processing

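Among the fractions, the 0 calls over all genes became 1 on deposited TPM for G2 against G1 and for G2 against S and 3 for any difference. They became 1 with median ratios for G2 against G1 and for S against G1, 1 without the trend for any difference, and 0 to 1 for S against G1 when single libraries were left out. The groups share 2 replicate numbers, so a comparison has only 2 same-numbered pairs, and the labels name no shared culture. Deviations from the fraction means nevertheless correlated by 0.348 to 0.441 between libraries of the same number (15 pairs of fractions, across genes). With the replicate number as a replicate block, 40 genes passed for G2 against G1, 184 for S against G1, 249 for the slope and 173 for any difference. With recovered reads, voom and the replicate block, chosen after seeing the data, 91, 340, 808 and 703 passed, and 1 for G2 against S. Members called with the block were 1 for S against G1 and 1 for any difference, PFKFB1 both times (adjusted p 0.0103 and 0.0441 by limma), and with voom and the block 1, 1 and, for the slope, 2, namely SLC2A1 (-0.17, adjusted p 0.0248) and ENO3 (-0.15, adjusted p 0.0295). The block changed no call of a member for G2 against G1 or G2 against S.

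Between replicate numbers, leaving out a library gave 5519 to 5779 genes and 20 to 21 members called. For sorted against bulk it gave 8126 to 9433 genes, 12 to 17 members and 8 to 11 shares, and the replicate block 20 members, adding ALDOC (adjusted p 0.00826), PGK1 (0.025), SLC16A3 (0.0446) and PFKFB3 (0.0473). That block gives bulk and sorted libraries of the same number a shared term, although no label says that they belong together. Reversed in sign on deposited TPM were PFKL (-1.59), ENO2 (-1.45), ENO3 (-0.70), SLC2A1 (-2.31), PFKFB1 (-0.15), PFKFB2 (-1.51), PFKFB4 (-0.82) and PDK1 (-0.086). HK2 (-2.29), SLC16A3 (-1.97), PFKFB3 (-1.27) and PDK2 (-2.21), not called on the protein-coding scale, also turned from positive to negative. Among all of these, ENO3, PFKFB1, PFKFB4 and PDK1 did not pass on deposited TPM (limma adjusted p 0.124, 0.467, 0.218 and 0.867). The reversals follow by construction of that scale, since protein-coding genes hold less of it in sorted libraries. PFKFB4 missed the threshold for sorted against bulk with no filter on low values (adjusted p 0.0544 by limma), without the trend (0.0516), with median ratios (0.274) and with voom (0.0633), and PFKL and PFKFB2 with median ratios (0.55 and 0.841). The cause was not tested. Leaving out a fraction was not run for shares between replicate numbers, since 5 pairs cannot pass. Few reads limit HK1 and PFKP (means of 1.28 and 1.57 protein-coding TPM in sorted libraries) and the 5 members whose levels were not tested. Of these 5, PDK4 entered the tests of shares.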
